A study of Homo sapiens with 9 samples.

Results

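The BCL2 family decides whether a cell survives or dies through its mitochondria, and 10 of its genes were taken by symbol from a table of normalised RNA-seq read counts: the survival genes BCL2, BCL2L1 and MCL1, the effectors BAX and BAK1, and the BH3-only genes BBC3, PMAIP1, BCL2L11, BID and BMF. Of the 10, 9 were matched among 13745 genes and all 9 reached a value of 40 in some library, the minimum for testing that 12481 genes met. BCL2L11 was not analysed here. RNA came from BJ cells, human fibroblasts made immortal with telomerase (hTERT), and was sequenced in bulk. The 9 polyA libraries formed 5 groups. The control group (1 library) carried non-targeting hairpin 500 and is described as having no RAS activation. In the senescent group (2 libraries, with non-targeting hairpins 500 and 507) senescence was induced by the oncogenic allele RASG12V. In the other 3 groups RASG12V was activated in cells depleted by hairpins of lncRNA-OIS1, a long non-coding RNA (4 libraries, hairpins 32-2, 32-3, 32-8 and 32-9 as replicates 1 to 4), of p53 (1 library) or of BRD7, a bromodomain protein (1 library). By the labels every library, the control included, was from cells at 14 days of 4-OHT, while the design text has the control untreated.

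The proteins of this family meet at the outer mitochondrial membrane. BAX and BAK1 form the pores that release cytochrome c and start the caspases, the proteases that dismantle the cell. BCL2, BCL-XL (from BCL2L1) and MCL1 hold BAX, BAK1 and the BH3-only proteins back, and the BH3-only proteins, which carry signals of stress, occupy the survival proteins or activate the effectors. PUMA (from BBC3), NOXA (from PMAIP1), BAX and BID are known targets of p53, and senescent fibroblasts are known for resisting apoptosis, with BCL-XL among the proteins that drugs against senescent cells block. Much of this control acts on the proteins, which RNA levels do not show.

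Each value was a read count per gene that the authors had quantile-normalised with a floor of 20, so that every library holds the same set of values (median 340.1) and sequencing depth is unknown. Values are not per length, so levels are compared between libraries and not between genes. In bulk RNA, a change in all cells and a change in some of them cannot be told apart. The labels do not say whether libraries of a group came from separate cultures, and p-values measure only the spread between them. Libraries of the replicated groups each carried a different hairpin, so that spread cannot be separated from differences between hairpins. The control library had 490 genes over 2-fold above every other library and lncRNA-OIS1 replicate 4 had 300, against at most 27 in any of the other 7, so results that rest on replicate 4 are given with and without it. BRD7 stood at 94.6 in its knockdown library and at 536.6 or more in the others. All 8 fibroblast markers were measured and none was at the floor in any library; their summed value was 416022.2 in the control and 119066.7 to 199976.6 in the RAS libraries. Of the 8, COL1A1, COL1A2, COL3A1, FN1, PDGFRB and THY1 were higher in the control than in every RAS library, and VIM and S100A4 lower. That sum is carried by the most abundant of them. COL1A1, a collagen gene, had 110360.7 in the control and 8078.4 to 18745.7 under RAS. COL1A2 had 129460.3 and 16210.4 to 43305, and VIM, which encodes vimentin, 39745.4 and 48419.6 to 110360.7. S100A4, a small part of the sum, had 6416.8 and 6829 to 13799.4. The part of these differences in the results below was not tested. Of 7 epithelial markers 3 were measured (sum 3686.7 in the control, 801.4 to 2105.3 under RAS), of 5 leukocyte markers 2 (196.5 and 45.1 to 163.9, with PTPRC at the floor in all RAS libraries) and of 5 endothelial markers 1 (22.2 and 37.4 to 266.9).

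In the fit of all 9 libraries, some death genes and 1 survival gene, BCL2L1, were called higher in the senescent libraries than in the control. PMAIP1, which encodes the BH3-only protein NOXA, rose most, 14.0-fold between control and senescent libraries, and BCL2L1, BAK1 and BID each rose about 2-fold. None of the 9 genes fell past the threshold, and BBC3, which encodes PUMA, was lower in all 8 RAS libraries than in the control. By limma, the 4 rises are 4 of 9 genes at an adjusted p under 0.05, where 7.95% of all genes tested were called higher and 15.0% in either direction. Without lncRNA-OIS1 replicate 4, 7 of 9 genes passed (BID, BAK1, BAX, PMAIP1, MCL1 and BCL2L1 higher, BBC3 lower), where 29.7% of genes did. With only the compared groups in the fit 6 of 9 passed, all higher (BAX and MCL1 joined the 4), where 21.4% of genes were called higher. Without senescent replicate 1 or 2 none of the 9 passed by limma, at adjusted p of 0.0872 or more. The median log2 change of the 9 genes was 0.73, and that of all genes 0.03. The control group is 1 library, whose spread the model takes from the replicated groups, the lncRNA-OIS1 libraries among them. lncRNA-OIS1 replicate 4 enters this comparison only through that spread, and the median log2 change of the 9 genes was 0.73 with and without it.

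PMAIP1 (ENSG00000141682) measured 337.8 in the control cells, and the senescent libraries gave 4485.3 and 4994.2, a log2 change of 3.81 (SE 0.53, limma adjusted p = 0.014). With lncRNA-OIS1 hairpins it had 3176.9, 3620.3, 4485.3 and 1744 in replicates 1 to 4, with p53 knockdown 2228.2 and with BRD7 knockdown 3532.4. Every RAS library was thus at least 5.16-fold above the control, and the lowest of them were lncRNA-OIS1 replicate 4 and the p53 knockdown. The call was lost without senescent replicate 1 (adjusted p = 0.0872) or 2 (adjusted p = 0.101), each of which leaves 1 library against 1.

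BID encodes a BH3-only protein that caspase-8 cuts to link death receptors to mitochondria. BID (ENSG00000015475) stood at 538.4 without RAS activation and at 1017.2 and 1114.8 in senescence (log2 0.98, SE 0.21, adjusted p = 0.0356). All 6 knockdown libraries lay in between, at 770.2, 550.2, 643.8 and 621 with the lncRNA-OIS1 hairpins, 610.4 with p53 knockdown and 708.3 with BRD7 knockdown. The call was lost without senescent replicate 1 (adjusted p = 0.136) or 2 (0.177) and without lncRNA-OIS1 replicate 3 (0.0625).

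Of the 2 effectors, BAK1 (ENSG00000030110) had a control value of 149.9 and senescent values of 322.2 and 282.9 (log2 1.01, SE 0.20, adjusted p = 0.0314). Its lncRNA-OIS1 values were 252.7, 288.9, 306.8 and 323.7, and the p53 and BRD7 knockdown libraries, at 212 and 222.8, sat below all of these and above the control. BAX (ENSG00000087088) measured 1096.4 in the control cells, and the senescent libraries gave 1810.9 and 1817.2, and it did not pass (log2 0.73, SE 0.24, adjusted p = 0.0925; 0.0222 without lncRNA-OIS1 replicate 4). BAX had 1593.3, 1689.2, 1917.6 and 1274.9 with lncRNA-OIS1 hairpins, 1341.4 with p53 knockdown and 1635.7 with BRD7 knockdown, all above the control. The BAK1 call was lost without senescent replicate 1 (adjusted p = 0.153) or 2 (0.135) and without lncRNA-OIS1 replicate 2 (0.0632) or 3 (0.0536). BAK1 has 2 processed pseudogenes in the GENCODE annotation, BAK1P1 and BAK1P2, with which it could exchange reads.

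Among the survival genes, BCL2L1 (ENSG00000171552) stood at 2104.4 without RAS activation and at 4282.7 and 4247.9 in senescence (log2 1.02, SE 0.25, adjusted p = 0.0483). The call was the narrowest of the 4: it was lost with median-of-ratios scaling (adjusted p = 0.051), with no filter (0.0579) and with no variance trend (0.0571). It was also lost without senescent replicate 1 (0.177) or 2 (0.194) and without lncRNA-OIS1 replicate 1 (0.064) or 2 (0.0872). MCL1 (ENSG00000143384), whose protein turns over fast and is the main partner of NOXA, had a control value of 3462.8 and senescent values of 4964.8 and 5127.6 (log2 0.54, SE 0.35, adjusted p = 0.336; 0.0125 without lncRNA-OIS1 replicate 4). All 8 RAS libraries were above the control for MCL1. BCL2 (ENSG00000171791) measured 80.3 in the control cells, and the senescent libraries gave 47.8 and 35.6 (log2 −0.96, SE 0.99, adjusted p = 0.545), close to the floor, and its values ran from 20 in lncRNA-OIS1 replicate 3 to 121.4 with p53 knockdown.

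The remaining BH3-only genes had values of at most 173.1 in every library. BBC3 (ENSG00000105327) stood at 115.9 without RAS activation and at 62.3 and 72.8 in senescence (log2 −0.78, SE 0.20, adjusted p = 0.0548; 0.0299 without lncRNA-OIS1 replicate 4, 0.0388 with no filter, 0.0378 with no variance trend and 0.0455 with a pseudocount of 50). In the knockdown libraries BBC3 had 69.8 to 90.4, so the p53 target genes of this family did not all lie on 1 side of the control. BMF (ENSG00000104081), a BH3-only gene tied to loss of attachment, had a control value of 67.2 and senescent values of 23.1 and 53.1 (log2 −0.94, SE 1.29, adjusted p = 0.66). BMF was highest in lncRNA-OIS1 replicates 1 and 3, at 173.1 and 141.8, while replicates 2 and 4 had 48.7 and 23.9. Within that group the lowest and highest BMF values therefore differed more than the control and senescent libraries did.

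**Figure D1:**
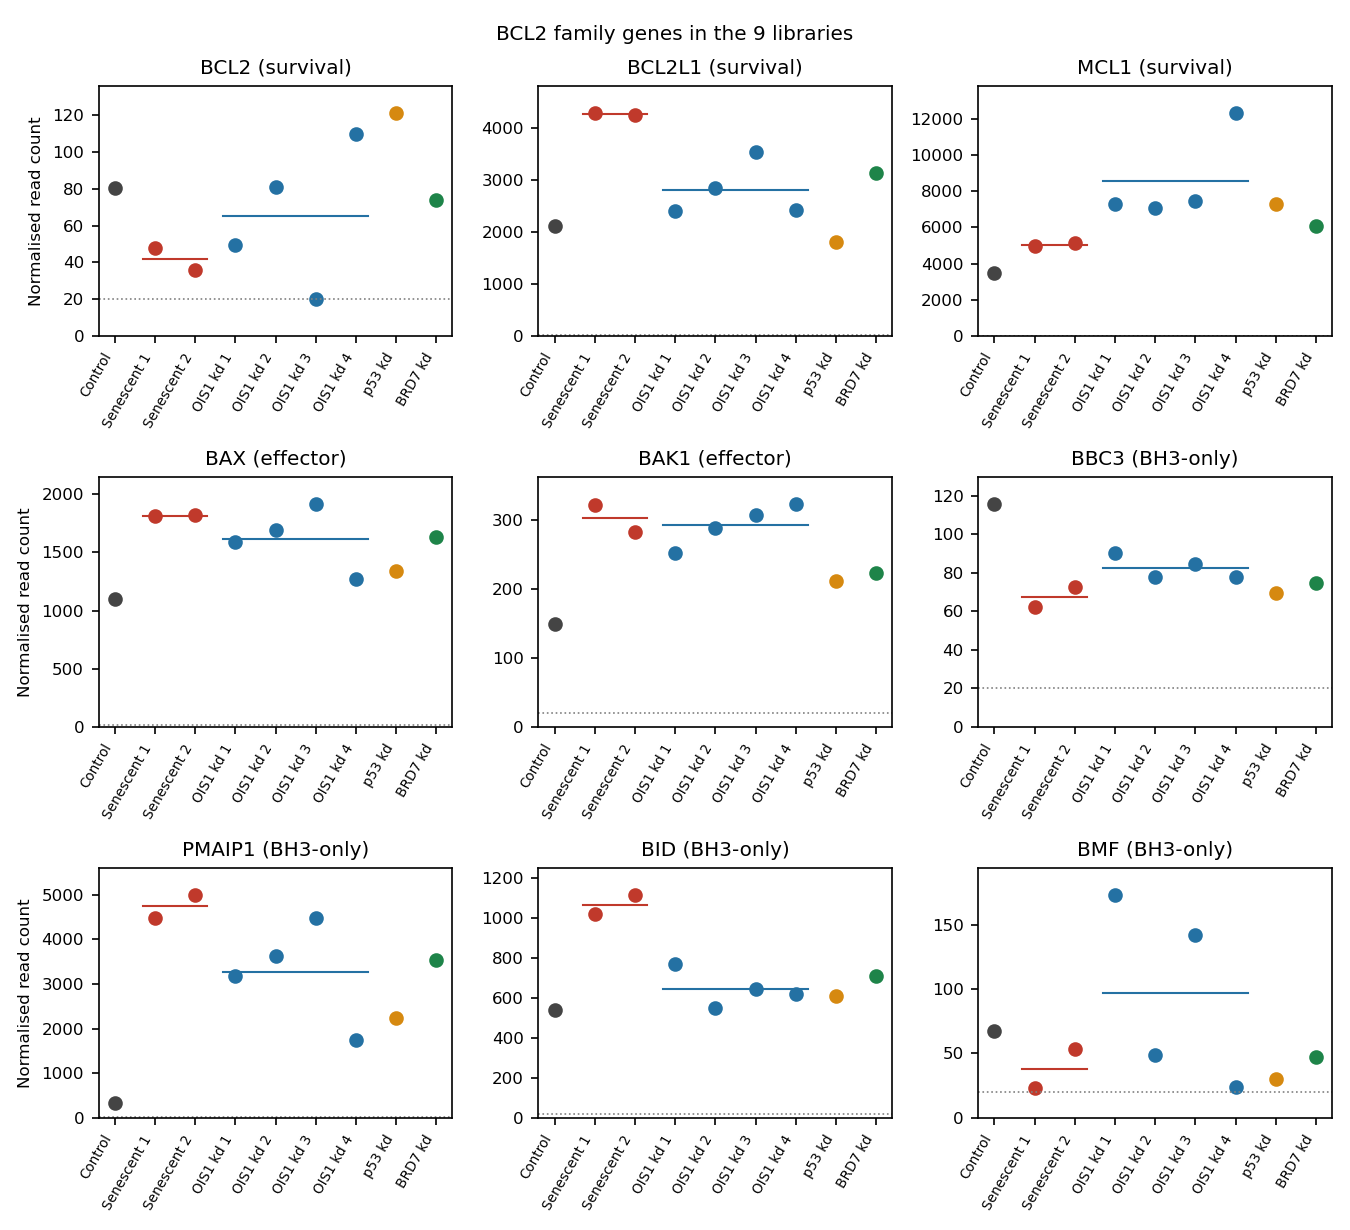
Normalised read count (linear axis from 0) of the 9 BCL2 family genes in each of the 9 libraries, 1 point per library, with a horizontal line at the mean of the senescent (n = 2) and lncRNA-OIS1 (OIS1, n = 4) groups and a dotted line at the floor of 20. PMAIP1 lies at 337.8 in the control and at 1744 or more in all RAS libraries, while BCL2L1 and BID are highest in the 2 senescent libraries.

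Across the 8 RAS libraries, 6 of the 9 genes lay on 1 side of the control: MCL1, BAX, BAK1, PMAIP1 and BID above it and BBC3 below it. Over all genes tested 48.4% did so. BCL2L1 was the exception among the called genes, because the p53 knockdown library, at 1807.4, was below the control. Over the 9 libraries PMAIP1 had the widest range, 14.8-fold from lowest to highest, followed by BMF at 7.49-fold and BCL2 at 6.07-fold, the last with its lowest value at the floor. BAX and BBC3 varied least, by 1.75-fold and 1.86-fold.

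The start-site regions of the 3 called genes with the fewest annotated starts are shown because these genes rose together in the senescent libraries. Of the 9 genes, 8 had a window (250 bases before to 50 after a start) in the RefSeq table of build GRCh38.p14, and MCL1 was not matched. Searched on both strands were the 10-base p53 consensus (1 of the repeats of a p53 site), the AP-1 site TGANTCA, the core TGACGT of the cAMP response element, the E-box CACGTG, the ETS site CCGGAAG and the FOXO site GTAAACA. Capitals mark matches to any of these.
PMAIP1, chr18:59899746-59900045, plus strand: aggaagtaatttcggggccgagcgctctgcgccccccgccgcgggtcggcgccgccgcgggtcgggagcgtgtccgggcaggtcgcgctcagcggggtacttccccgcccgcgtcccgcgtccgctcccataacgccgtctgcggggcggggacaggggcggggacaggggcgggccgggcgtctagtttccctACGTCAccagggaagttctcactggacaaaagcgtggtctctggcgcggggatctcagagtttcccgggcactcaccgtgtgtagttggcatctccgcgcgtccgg
BAK1, chr6:33580227-33580526, minus strand: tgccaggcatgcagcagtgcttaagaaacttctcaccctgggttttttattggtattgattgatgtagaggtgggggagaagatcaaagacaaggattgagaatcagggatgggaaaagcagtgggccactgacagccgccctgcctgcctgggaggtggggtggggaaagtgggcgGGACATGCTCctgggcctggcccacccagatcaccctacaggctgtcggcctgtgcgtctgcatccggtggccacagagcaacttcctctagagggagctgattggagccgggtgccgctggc
BCL2L1, chr20:31723914-31724213, minus strand: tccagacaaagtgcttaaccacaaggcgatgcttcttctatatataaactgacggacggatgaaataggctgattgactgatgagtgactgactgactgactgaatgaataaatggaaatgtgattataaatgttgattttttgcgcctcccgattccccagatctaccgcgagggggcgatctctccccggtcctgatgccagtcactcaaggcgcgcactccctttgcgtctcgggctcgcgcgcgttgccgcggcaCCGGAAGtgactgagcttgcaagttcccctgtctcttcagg
The PMAIP1 window held ACGTCA, the reverse complement of TGACGT, from base −56, and 7.98% of all 35116 windows held that motif. BAK1 held the p53 consensus once, from base −73, as did 6.63% of windows. BCL2L1 held CCGGAAG from base 10 after the start, as did 10.3%, and its second annotated window held none of the 6 motifs. BID had 5 windows, of which 2 that overlap held CACGTG and the others none of the 6. BAX held CACGTG 4 times, a motif found in 7.26% of windows, and BBC3 held CACGTG and the AP-1 letters TGAGTCA. The BCL2 and BMF windows held none of the 6. These are matches of letters in short windows, and no binding was measured.

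The first knockdown comparison asked which RNA levels under RAS differed when lncRNA-OIS1 was depleted, with the senescent libraries as reference. No member passed: 0 of 9, and 0 of 12481 genes (0%) by limma, with 3 of 9 and 2805 of 12481 (22.5%) at an unadjusted p under 0.05. The 3 were BID, BCL2L1 and MCL1. BID averaged 646.3 ± 91.7 (SD, n = 4) against 1066 ± 69.0 (n = 2), log2 −0.73 (SE 0.15, adjusted p = 0.0856). BCL2L1 had 2402.3, 2843.7, 3525.6 and 2420 in replicates 1 to 4, all below both senescent libraries (log2 −0.63, SE 0.17, adjusted p = 0.123). MCL1 had 7306.7, 7057, 7480 and 12329, all above both (log2 0.72, SE 0.25, adjusted p = 0.174).

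Without replicate 4, whose MCL1 value stood apart, MCL1 averaged higher with a log2 change of 0.53 and passed (adjusted p = 0.0476), when 1.31% of genes did. In all, BID, BCL2L1, MCL1 and BBC3 had 4 lncRNA-OIS1 libraries that did not overlap the 2 senescent ones, 4 of 9 genes, where 38.6% of all genes had that. Set against all 6 knockdown libraries, both senescent libraries were lower for MCL1 and higher for BCL2L1 and BID, 3 of 9 genes where 33.2% of all genes separated in either direction. PMAIP1 did not separate: replicate 3 equalled senescent replicate 1 at 4485.3 and replicate 4 was lowest (log2 −0.62, SE 0.38, adjusted p = 0.388; −0.35 without replicate 4, adjusted p = 0.252). BAX and BAK1 differed by log2 −0.18 and −0.05, with 95% intervals of −0.59 to 0.23 and −0.41 to 0.31, and BAX by −0.07 without replicate 4. The sign of the BAK1 difference turned without senescent replicate 1 (0.045) and without lncRNA-OIS1 replicate 1 (0.020). BCL2 had 49.6, 81.2, 20 and 110.1 in replicates 1 to 4, on both sides of the senescent pair.

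A second comparison asked the same of p53. The label of its 1 library was checked on p53 target genes. CDKN1A, which encodes the cell cycle inhibitor p21, had 2721.1 against 20559.2 ± 2565 (n = 2), log2 −2.91 (SE 0.45, limma adjusted p = 0.0467). MDM2, which encodes the p53 ubiquitin ligase, had 1214.9 against 3159.6 ± 46.2 and did not pass (adjusted p = 0.117). CDKN1A was lowest with p53 knockdown, but every other knockdown library was also below both senescent ones, at 6989.6 to 15473.7. The CDKN1A call was lost without senescent replicate 1 or 2 or lncRNA-OIS1 replicate 1, 2 or 3 (adjusted p = 0.0657 to 0.279) and with no variance trend (0.0515). Of the BCL2 family 0 of 9 passed by limma, where 3.84% of genes did. At an unadjusted p under 0.05 there were 3 of 9, and 26.3% of all genes. BCL2L1 came nearest, at 1807.4 against 4282.7 and 4247.9, which is 42.4% of their mean (log2 −1.24, SE 0.25, adjusted p = 0.0568), and it passed when genes were kept at a mean of 80 (0.0432), with the fit limited to the compared groups (0.0265) and without lncRNA-OIS1 replicate 4 (0.0428). This was the lowest BCL2L1 value of the 9 libraries.

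PMAIP1 was at 47.0% of the senescent pair in the p53 knockdown library (log2 −1.09, SE 0.53, adjusted p = 0.263) and still 6.60-fold above the control. Its difference passed with the fit limited to the compared groups (adjusted p = 0.0398) and without lncRNA-OIS1 replicate 4 (0.0469), and so in the latter did that of MCL1 (log2 0.53, adjusted p = 0.0318). With that library left out 3 of 9 genes passed, where 17.2% of all genes did. BID lay at 57.3% of that pair (log2 −0.80, adjusted p = 0.0848), BAK1 at 70.1% (log2 −0.51, adjusted p = 0.186) and BAX at 73.9% (log2 −0.44, adjusted p = 0.306). With only the compared groups in the fit 5 of 9 passed, BID (0.0442), BAX (0.0359) and MCL1 (0.037) beside BCL2L1 and PMAIP1, where 27.5% of all genes did. BBC3 was at 103% (log2 0.05, 95% interval −0.45 to 0.55), and its sign turned to −0.061 without senescent replicate 1. BCL2 had its highest value here, 121.4 against 47.8 and 35.6 (log2 1.56, SE 0.99, adjusted p = 0.377).

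Among the known p53 targets, PMAIP1, BID and BAX thus lay between the control and the senescent pair in the p53 knockdown library. BBC3 lay below the control and within the senescent pair. This was not particular to p53 knockdown or to these targets. PMAIP1, BID and BAX also lay between them with BRD7 knockdown (3532.4, 708.3 and 1635.7) and in lncRNA-OIS1 replicates 1, 2 and 4. In replicate 3 only BID did, and BAK1 lay between them with p53 knockdown (212). In the BRD7 knockdown library 0 of 9 genes passed by limma against the senescent libraries, where 0.00801% of genes did. At an unadjusted p under 0.05 there was 1 of 9, BID, and 13.9% of all genes. BID lay at 66.4% of the mean of the pair (log2 −0.59, SE 0.21, adjusted p = 0.307). BCL2L1 had 3132.1, 73.4% of that mean, and PMAIP1 3532.4, or 74.5% (adjusted p = 0.494 and 0.818). Both values lay within the range of the 4 lncRNA-OIS1 libraries. MCL1 had 6064, the lowest of the 6 knockdown libraries and above both senescent ones (log2 0.27, SE 0.35, adjusted p = 0.832). The comparisons with the senescent group share its 2 libraries, so a chance deviation of those would appear in each.

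**Figure D2:**
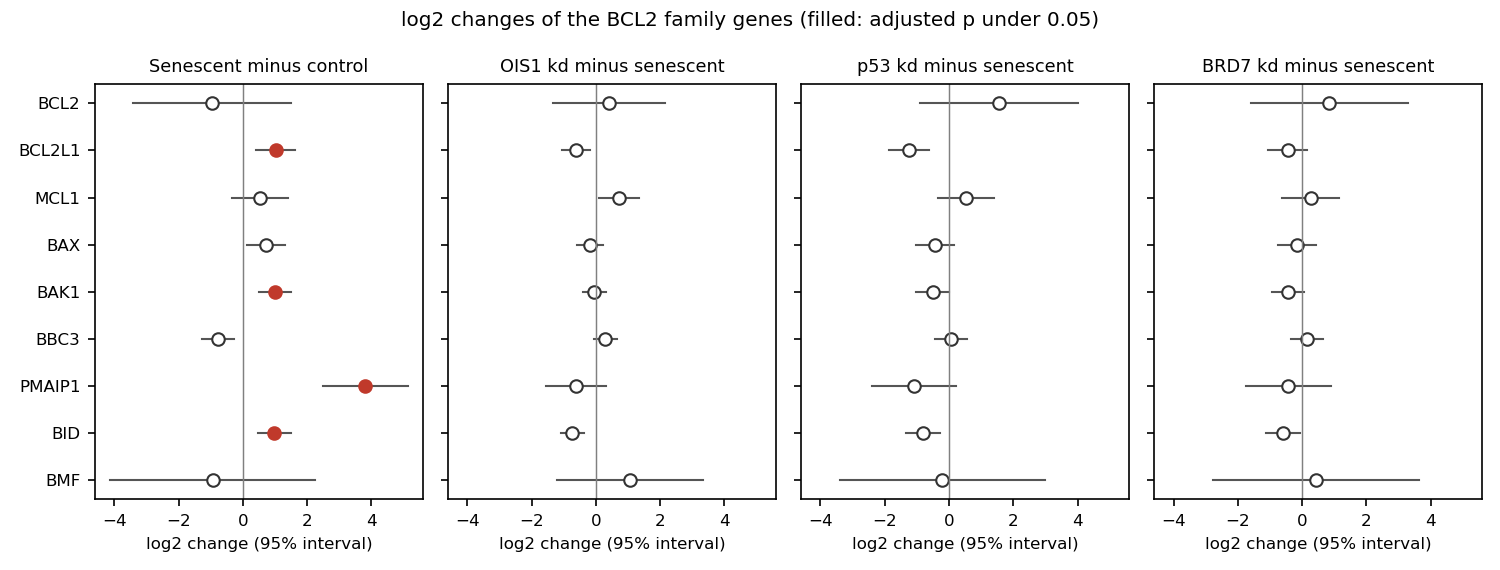
log2 change of each gene (points) with its 95% interval from limma (lines) in 4 comparisons. Filled points have an adjusted p under 0.05: PMAIP1, BCL2L1, BAK1 and BID in the senescent against control comparison, and no gene in the 3 knockdown (kd) comparisons.

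Compared with the control, the lncRNA-OIS1 libraries had PMAIP1 higher by log2 3.19 (SE 0.49, adjusted p = 0.017) and BAK1 higher by log2 0.96 (SE 0.19, adjusted p = 0.0317), 2 of 9 genes against 5.38% of all genes called higher and 11.2% in either direction. Without lncRNA-OIS1 replicate 4 MCL1 (log2 1.07, adjusted p = 0.00251) and BAX (0.66, adjusted p = 0.0286) passed too, making 4 of 9 against 22.6% of genes. The PMAIP1 call was lost without senescent replicate 1 or 2 (adjusted p = 0.0597 and 0.0598) and with only the compared groups (0.06). That of BAK1 was lost with only the compared groups (0.0874), without senescent replicate 1 (0.0875) or 2 (0.0872) and without lncRNA-OIS1 replicate 2 (0.0745) or 3 (0.0692). BCL2L1 and BID, which had passed in the senescent libraries, did not pass here, at log2 0.39 and 0.25 (adjusted p = 0.31 and 0.436). Between the p53 and lncRNA-OIS1 knockdowns 0 of 9 genes passed by limma, where 0.00801% of genes did. At an unadjusted p under 0.05 there were 2 of 9, BCL2L1 and BAK1, and 10.6% of all genes. BCL2L1 was lower with p53 knockdown by log2 −0.61, with a 95% interval of −1.17 to −0.05 (adjusted p = 0.449).

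Since levels cannot be compared between genes, pairs of members were followed as a ratio within each library, relative to the ratio in the control. The pairs were chosen after the values were seen and no test was made. Not every pair is of binding partners, and a ratio of RNA levels does not show protein binding. The ratio of PMAIP1 to MCL1 was 9.26 and 9.98 times the control's in the senescent libraries. With lncRNA-OIS1 hairpins it was 4.46, 5.26, 6.15 and 1.45 times, with p53 knockdown 3.14 and with BRD7 knockdown 5.97. All 6 knockdown libraries were thus below both senescent ones, and replicate 4 was nearest to the control. The ratio of PMAIP1 to BCL2L1 moved less among RAS libraries: it was 6.52 and 7.32 times the control's in the senescent pair, 7.03 to 8.24 times in 5 of the knockdown libraries and 4.49 times in lncRNA-OIS1 replicate 4. The ratio of MCL1 to BCL2L1 was 0.705 and 0.734 times the control's in the senescent libraries and 1.18 to 3.10 times in the 6 knockdown libraries. BAX over BCL2L1 was 0.812 and 0.821 times in the senescent pair and 1.0 to 1.43 times in the knockdown libraries.

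**Figure D3:**
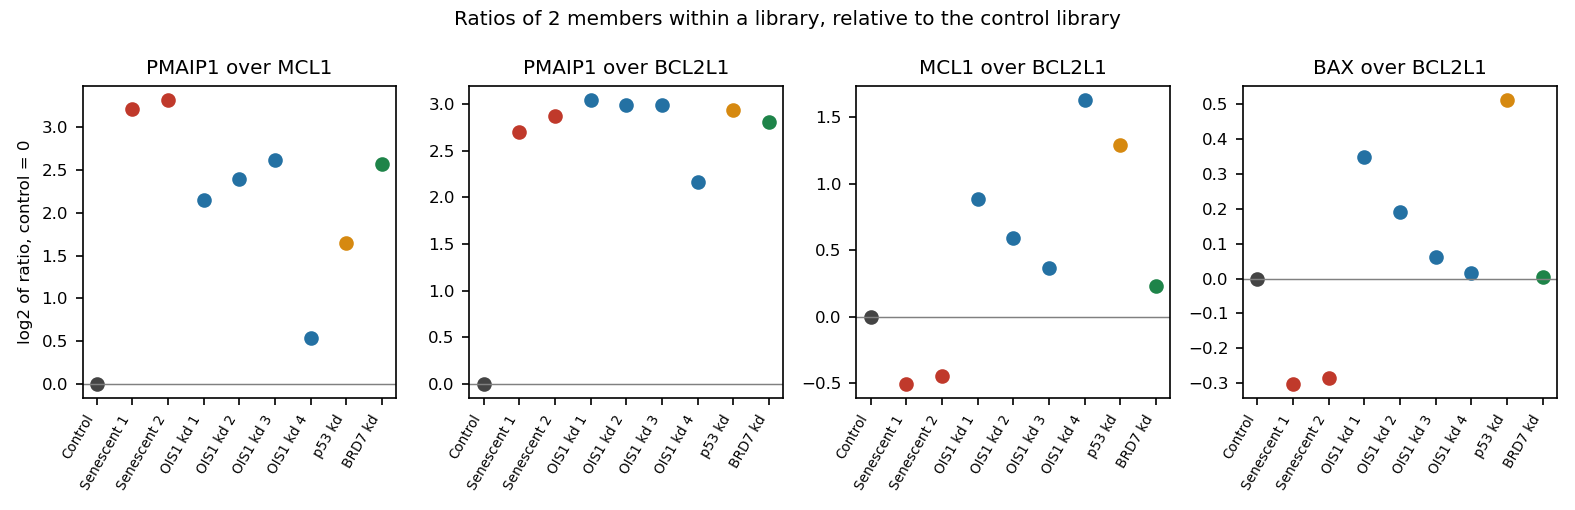
log2 of the ratio of 2 genes within a library, set to 0 in the control, for 4 pairs of BCL2 family genes, 1 point per library (vertical scales differ between panels). For PMAIP1 over MCL1 the 2 senescent libraries are highest (3.21 and 3.32), and for MCL1 over BCL2L1 they are lowest (−0.51 and −0.45).

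The rest of the family and the caspase pathway were followed as lists. Of 8 further BCL2 family genes tested, 1 rose and 2 fell in the senescent libraries (median log2 0.11, all genes 0.03), where 7.95% of all genes rose and 7.10% fell. BAD, a BH3-only gene, rose by log2 0.78 (adjusted p = 0.0276), from 167.7 to 286.1 and 289.8. BOK, a relative of BAX, fell by 1.36 (adjusted p = 0.0402), from 792.4 to 318.1 and 300.6, and BCL2L13, a mitochondrial outer membrane protein gene, fell by 0.53 (adjusted p = 0.0491). BOK had 229.9 to 376.8 in the 6 knockdown libraries, all under the control.

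Of 12 apoptosome and caspase genes 5 rose and none fell (median log2 0.25), beside the same 7.95% and 7.10% of all genes. CASP8, which encodes the caspase of death receptors that cuts BID, rose by log2 1.04 (adjusted p = 0.0176), from 324.9 to 651.2 and 684.2, and it stayed between 596.6 and 744.6 in the knockdown libraries. CYCS, which encodes cytochrome c, rose by log2 0.86 (adjusted p = 0.0179). With lncRNA-OIS1 hairpins 4 of these 12 genes were higher than in the control and none lower, where 5.38% of all genes were higher. Among them were CASP10, an initiator caspase gene (log2 1.76, adjusted p = 0.0372), and CASP8 (log2 1.06, adjusted p = 0.0137). Both calls were lost with only the compared groups in the fit (adjusted p = 0.0861 and 0.0544), and that of CASP10 also with a pseudocount of 50 (0.0581).

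Of 7 genes for IAP proteins, which block caspases, and their antagonists, 1 rose and 1 fell in the senescent libraries (median log2 0.21), beside 7.95% and 7.10% of all genes. The protease gene HTRA2 rose by log2 0.86 (adjusted p = 0.0364), and XAF1, an antagonist of XIAP, fell by 1.59 (adjusted p = 0.0408), from 487.2 to 158.2 and 165.1. Of 9 regulators of BIM and MCL1, DYNLL1, which encodes a dynein light chain that binds BIM, rose by log2 0.66 (adjusted p = 0.0167). FOXO1, a transcription factor gene, fell by 2.92 (adjusted p = 0.0319), from 549.2 to 72 and 73.1, and was at 134 or less in the knockdown libraries. Without lncRNA-OIS1 replicate 4 the IAP list had 3 higher and 1 lower, and the regulators 1 higher and 2 lower, when 16.1% of all genes were higher and 13.5% lower.

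Of 11 further p53 targets linked to apoptosis 2 rose and none fell in the senescent libraries, where 7.95% of all genes rose and 7.10% fell. Their median log2 change was 1.46, and that of all genes 0.03. Without lncRNA-OIS1 replicate 4, 6 of the 11 rose, when 16.1% of all genes did. AEN, an apoptosis-enhancing nuclease gene, rose by log2 1.46 (adjusted p = 0.00525), from 744.6 to 2059.3 and 2025.7, and TRIAP1, a mitochondrial survival gene, by log2 1.46 (adjusted p = 0.0242). AEN had 1850.2 with p53 knockdown, 90.6% of the senescent mean. Of 13 targets linked to arrest and feedback 3 rose and none fell (median log2 1.11), beside the same 7.95% and 7.10% of all genes. The 3 were CDKN1A by log2 2.52 (limma adjusted p = 0.0251), PLK3 by 1.11 and CCNG1 by 1.02. Without replicate 4, 7 of the 13 rose, beside 16.1% of all genes. With p53 knockdown against senescent, 2 of these 13 fell, where 1.57% of all genes did: CDKN1A and BTG2 (log2 −3.54, adjusted p = 0.0467), the latter an antiproliferative gene at the floor in that library. None of the 11 apoptosis targets passed there by limma (7 of 11 at an unadjusted p under 0.05, and 26.3% of all genes; median log2 −1.15, all genes 0). Against senescent, the 11 were also lower in median with lncRNA-OIS1 hairpins (log2 −0.47, 11 of 11 below 0) and BRD7 knockdown (−0.35, 10 of 11). All genes had a median of −0.02 in both. With p53 knockdown but without lncRNA-OIS1 replicate 4, 4 of the 11 and 6 of the 13 were lower, where 8.82% of all genes were. The CDKN1A and BTG2 calls were lost without senescent replicate 1 or 2 or lncRNA-OIS1 replicate 1, 2 or 3 (adjusted p = 0.061 to 0.279) and with no variance trend (0.0515 and 0.0507), and that of BTG2 also with a pseudocount of 50 (0.0508). Of the 17 genes of these lists called between senescent and control libraries, 0 kept their call without senescent replicate 1 or 2 (AEN came nearest, at adjusted p = 0.0546 and 0.0607), and 14, 5, 11 and 17 kept it without lncRNA-OIS1 replicates 1 to 4. No variance trend ended 3 of the 17 calls, median-of-ratios scaling 2, and no filter, a minimum mean of 80 and only the compared groups 1 each. Of the 10 called between lncRNA-OIS1 and control libraries, AEN alone kept its call without senescent replicate 1 or 2 or with only the compared groups, and 6, 3, 3 and 10 kept it without lncRNA-OIS1 replicates 1 to 4.

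**Figure D4:**
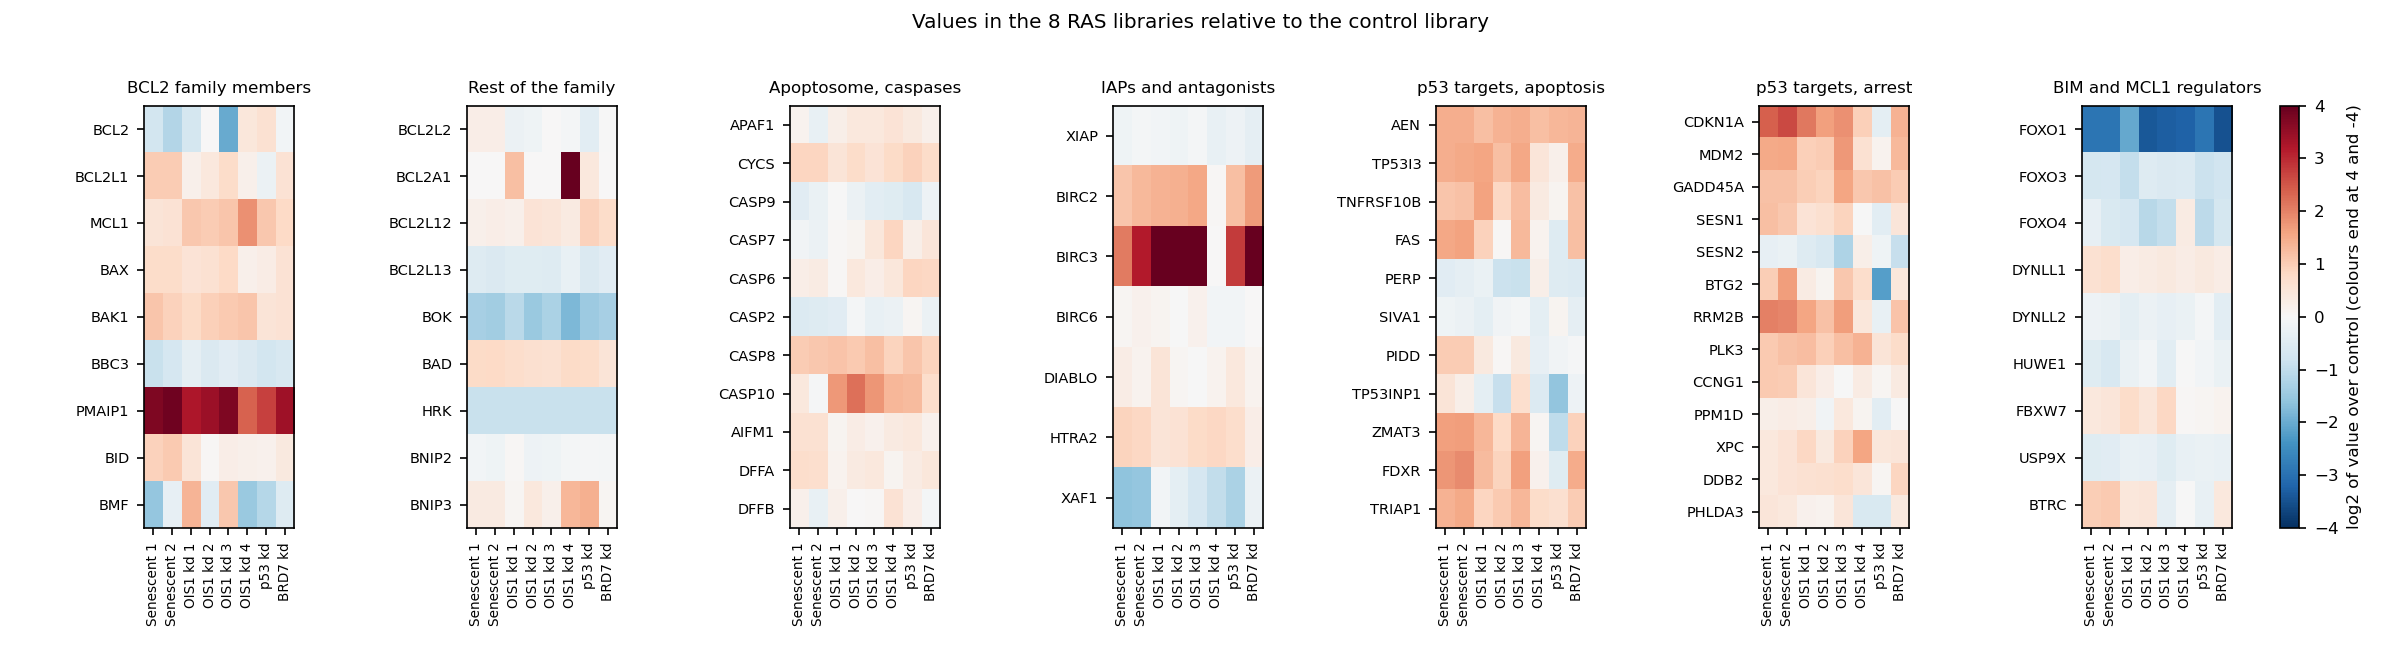
log2 of each gene's value over the control library's value (colour, ending at 4 and −4) in the 8 RAS libraries (columns) for the 9 BCL2 family genes and 6 lists of related genes (rows, 1 panel per list, with the list genes shown here; kd, knockdown). PMAIP1 is the only 1 of the 9 family genes with all 8 libraries over 2 on this scale, and CASP8, AEN and BOK keep 1 sign in all 8.

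For each of the 4 called genes, the 3 genes with the most similar pattern were sought among 6203 genes that varied at least 2-fold, by the root mean square distance between log2 values centred on their mean over the 9 libraries. Nearest to PMAIP1 were KIAA1217 (0.203), CD163L1 (0.27) and RNF182 (0.29). KIAA1217 measured 96 in the control cells, and the senescent libraries gave 1136.2 and 1122.8, with its lowest RAS values in the p53 knockdown (620.6) and lncRNA-OIS1 replicate 4 (653.8). Nearest to BID were PPM1K (0.102), ETFB (0.116) and HAGHL (0.123), and nearest to BAK1 were EAF1 (0.141), FAM108A1 (0.143) and C11orf95 (0.152). Nearest to BCL2L1 were a gene with no symbol in the table (ENSG00000248458, 0.121), FYCO1 (0.124) and ZNF814 (0.132). FYCO1 stood at 1885.2 without RAS, at 3474.7 and 3554.8 in the senescent pair and at 1724 with p53 knockdown.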

How the data were processed

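PolyA RNA from 9 BJ cell libraries was sequenced from TruSeq RNA libraries, per the labels' protocols. The deposited table holds a signal per gene and library, a normalised read count; quantile normalisation and a floor of 20 are known from the name and values of the deposited table (all 9 columns hold the same values). The submitters' processing notes name TopHat2, HTSeq and hg19. What each was used for, the annotation and any use of strand were not given in the sources used here. In GENCODE release 29 BCL2, BCL2L1, BAK1, BBC3 and BMF each overlap a gene on the other strand, and BCL2, MCL1 (ADAMTSL4-AS1), BBC3 and BID one on the same strand, with which reads could be exchanged.

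Groups came from the labels and members from the table's symbols. limma 3.58.1 in R 4.3.3 was fitted to log2 of the values (no pseudocount) for 12481 genes with a highest value of at least 40, in 1 fit of 9 libraries and 5 groups (4 residual degrees of freedom) with a variance trend. Tests were two-sided, with Benjamini-Hochberg adjustment over all genes and calls at an adjusted p under 0.05. The fit was tested on simulated data. For lone libraries the spread of the replicated groups was assumed. Means ± SD are linear, and log2 changes are between means on the log2 scale. The members and lists were chosen with earlier results of these data known. Named were the 9 members, up to 3 called genes per list, comparison and direction, genes checking the labels and the 3 genes most like each called member; some genes that the rule names, or that the lists count, are not reported here; flagged genes outside these were named after their values were seen. Alternatives tried were a pseudocount of 10 or 50, no filter, a minimum mean of 80, median-of-ratios scaling, no variance trend, only the compared groups, and leaving out each replicate.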

Additional observations from a re-analysis of the deposited data

Results flagged for a closer look

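In the 4 lncRNA-OIS1 libraries, 6 of 70 genes of the family and related lists had 1 library farther from the rest than Dixon's 95% limit for a group of 4 allows, where chance flags about 1 in 20 groups. In 4 of the 6 this library was replicate 4. MCL1 had 12329 in replicate 4 and 7057 to 7480 in the other 3. BCL2A1, a survival gene of the BCL2 family named here after its value was seen, had 453.8 in replicate 4 and 20 to 45.6 in the others. BIRC2, which encodes an IAP protein, had 1365.8 in replicate 4 and 3486.3 to 3856.1 in the others. BCL2L13 had 1367.1 in replicate 4 and 1162.2 to 1196.7 in the others. FOXO1 had 134 in replicate 1 and 52.8 to 57.8 in the others. USP9X, the gene of a deubiquitinase of MCL1, had 2469.1 in replicate 3 and 2772.1 to 2804.1 in the others. No cause was tested.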

How the results depend on the processing

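Of the log2 changes of the 9 genes under the alternatives, 646 kept their direction and side of the threshold, 24 lost a call, 20 gained one and 9 changed sign. The sign changes, in differences that were not called, all came from leaving out 1 library. For lncRNA-OIS1 knockdown against senescent, BAK1 ran from −0.14 to 0.045. For p53 knockdown against senescent, BBC3 ran from −0.061 to 0.16 and BMF from −0.81 to 0.39. BMF ran from −0.17 to 1.03 for BRD7 knockdown against senescent and from −0.29 to 0.66 for lncRNA-OIS1 knockdown against control. For p53 against lncRNA-OIS1 knockdown, MCL1 ran from −0.27 to 0.001 and BID from −0.15 to 0.016. Keeping genes at a mean of 80 left BCL2 and BMF untested.

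Leaving out 1 replicate at a time, genes called ran from 124 to 3704 for senescent against control, 0 to 164 for lncRNA-OIS1 knockdown, 0 to 2146 for p53 knockdown and 0 to 8 for BRD7 knockdown against senescent, 397 to 2822 for lncRNA-OIS1 knockdown against control and 0 to 31 for p53 against lncRNA-OIS1 knockdown. The highest count was always without lncRNA-OIS1 replicate 4. With only the compared groups, counts were 4998 (senescent against control), 3428 (p53 knockdown), 81 (BRD7 knockdown), 395 (lncRNA-OIS1 knockdown against control) and 0 (p53 against lncRNA-OIS1 knockdown), some of these fits resting on 1 residual degree of freedom. With no filter they were 57 (lncRNA-OIS1 knockdown), 30 (BRD7 knockdown) and 68 (p53 against lncRNA-OIS1 knockdown), and with no variance trend 1 (lncRNA-OIS1 knockdown), 2 (p53 knockdown) and 0 (BRD7 knockdown). Pseudocounts of 10 and 50 gave 0 for BRD7 knockdown. The fit as described called 1878 genes between senescent and control libraries, then 0, 479 and 1 for lncRNA-OIS1, p53 and BRD7 knockdown against senescent, 1399 for lncRNA-OIS1 knockdown against control and 1 for p53 against lncRNA-OIS1 knockdown. The cause of these shifts was not tested.

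Senescent and lncRNA-OIS1 libraries share the replicate numbers 1 and 2, which label different hairpins. Deviations of same-numbered libraries from their group means correlated at −0.071 and −0.099 across genes. The deviations of the 2 senescent libraries are mirror images, so these values cannot tell whether same-numbered libraries share more than a number. A fit with that number as a replicate block called 0 genes, as did the fit without it. Median-of-ratios scaling moved the median of all genes by at most 0.04 on the log2 scale. Every library already held the same set of values, so this scaling had little left to move and does not test the quantile normalisation.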
